A study of Homo sapiens with 6 samples.

Results

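The 45 genes described here encode proteins of DNA repair and of the DNA damage checkpoint, chosen by name from textbook pathways, and all 45 were found by symbol among the 18318 genes of the table used. The libraries were made from RNA of A375, a human melanoma cell line, in 2 groups of 3 libraries, called biological replicates in the labels. In 1 group the cells carried the empty pcDNA3.1 plasmid, the labelled vector backbone control, and in the other the plasmid for full-length SLNCR, a long non-coding RNA listed as LINC00673. Per the labels' protocols the plasmids have a puromycin resistance gene and a CAG promoter, went into the cells with Lipofectamine 2000, and were selected for 48 h in 2 µg/mL puromycin in serum-containing DMEM before RNA was taken from the whole transfected population. All 6 libraries share the line, the plasmid backbone, the reagent and the selection, no untransfected cells were analysed here, and no DNA-damaging agent is named in the labels. The title of the series pairs SLNCR with E2F1, a transcription factor of the cell cycle, and the comparison asks which genes SLNCR changes.

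Cells mend each kind of DNA lesion by its own route. Damaged or mispaired bases are cut out one by one in base excision repair, bulky lesions are removed with a stretch of the strand in nucleotide excision repair, and copying errors are removed by mismatch repair. Double-strand breaks are either religated by end joining or, after the ends have been cut back, copied from the sister chromatid by homologous recombination, while the Fanconi anaemia proteins act on crosslinked strands. ATM and ATR are kinases that sense breaks and exposed single strands and signal through CHEK2 and CHEK1 to hold the cell cycle. Many of these genes are transcribed most in cells that copy their DNA, and several are known E2F targets.

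SLNCR was measured first, as the check of the labels. The empty vector libraries held 195, 194 and 193 counts of it and the SLNCR libraries 1786, 2569 and 2040. This was 10.4-fold more (log2 fold change 3.38, SE 0.147, edgeR adjusted p = 3.11e-05). In the fit with a correction for GC content the log2 fold change was again 3.38, with an edgeR adjusted p of 0.0538. No GC content was available for SLNCR, so the correction used the median of the tested genes for it. Totals per library lay between 9287450 and 10822083 counts, and 44 of the 45 repair and checkpoint genes had at least 10 counts in every library. The labels call the cell type epithelial, but 8 of 11 epithelial markers, among them EPCAM, CDH1, KRT5, KRT14 and KRT19, stayed under 10 counts in every library, and the other 3 had 387 to 489 (DSP), 90 to 236 (KRT7) and 34 to 54 counts (CLDN4). Of 11 melanocyte and melanoma markers 9 were matched and their levels were split. MITF had 767 to 969 counts, SOX10 105 to 152, MCAM 2518 to 3298 and CSPG4 1564 to 1952, whereas MLANA had 11 to 16, S100A1 6 to 21 and the pigment genes PMEL, TYRP1 and DCT 2 to 13, 4 to 8 and 1 to 6. Summed melanocyte marker levels were 592 to 616 CPM with the empty vector and 558 to 580.0 CPM with SLNCR (CPM, counts scaled to a common library size with TMM factors), and the 6 of these markers that were tested included 0 with an adjusted p under 0.05. Of 14 proliferation genes tested, 3 were higher (CCNA2, CDK1 and CCNE2) and 2 lower (MCM5 and MCM7) at an edgeR adjusted p under 0.05. That is 35.7%, against 16.5% of all genes tested. In 6 of the 14 every SLNCR library lay above every empty vector library and in 5 below, against 19.7% and 19.1% of all genes. The 3 higher genes had transcripts of 36.9% to 42.1% GC, and MCM5 and MCM7 57.0% and 57.6%. With GC correction 0 of the 14 had an edgeR adjusted p under 0.05, as did only 0.0156% of all genes. The summed level of all 14 ranged from 3775 to 3834 CPM with the empty vector and from 3752 to 3779 CPM with SLNCR. These ranges overlapped. The part of these genes in the results was not tested. In bulk RNA, fewer cells that express a gene and less of its RNA per cell cannot be told apart.

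With SLNCR, 11 repair and checkpoint genes were higher and 2 were lower at an edgeR adjusted p under 0.05. The 11 were BRCA2, RAD51AP1 and NBN of homologous recombination, FANCL of the Fanconi pathway, MSH3 of mismatch repair, TDG of base excision repair, LIG4 and XRCC5 of end joining, RIF1 and HELB, which act on the choice of how an end is repaired, and the checkpoint kinase CHEK1. The 2 lower genes were MUTYH of base excision repair and ERCC1 of nucleotide excision repair. All of the differences were small: the higher genes lay between 1.15-fold and 1.48-fold of the empty vector level, MUTYH at 0.705 and ERCC1 at 0.872 of it.

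Of the 45 genes, 24.4% were called higher and 4.44% lower, against 8.84% and 7.67% of the 12797 genes tested, and 28.9% against 16.5% in either direction. The median log2 fold change was 0.11 over the 45 genes, with 32 positive and 13 negative, and -0.0097 over all genes tested. In 19 of the 45 genes (42.2%) every SLNCR library lay above every empty vector library, and in 5 (11.1%) every SLNCR library lay below, where the shares over all genes tested were 19.7% and 19.1%. The 13 called genes were all among these 24. The members were named with earlier results of these data in view, so their share of calls is a description.

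These differences followed the base composition of the transcripts. The 11 higher genes had transcripts of 36.1% to 44.2% GC (median 39.3%), while those of ERCC1 and MUTYH had 56.1% and 60.5% GC. When the dependence of each library on GC content was fitted over all genes and removed, 0 of the 45 genes had an edgeR adjusted p under 0.05, as did only 2 of all 12797 genes (0.0156%). The smallest edgeR adjusted p of the 45 was then 0.0881, for XRCC5. At an unadjusted p under 0.05 there were 7 of the 45 (15.6%) against 15.1% of all genes. SLNCR itself had an edgeR adjusted p of 0.0538 in this fit, so few calls there do not show that differences were absent. The 13 called genes kept the sign of their fold change, and the median over the 45 genes went from 0.11 to -0.011. The calls also depended on which library was left out, for the 45 genes as for all genes. With SLNCR replicate 1, or else number 1 or 2 of the empty vector replicates, removed, 0 of the 45 genes were called, and of all genes 1 was higher in each case and at most 1 lower. Without empty vector replicate 3, 13 of the 45 were called, with 1007 of all genes higher and 877 lower. Without SLNCR replicate 2 there were 18 of the 45, with 1722 and 1644 of all genes, and without SLNCR replicate 3 there were 10, with 807 and 710. The cause was not tested.

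**Figure D1:**
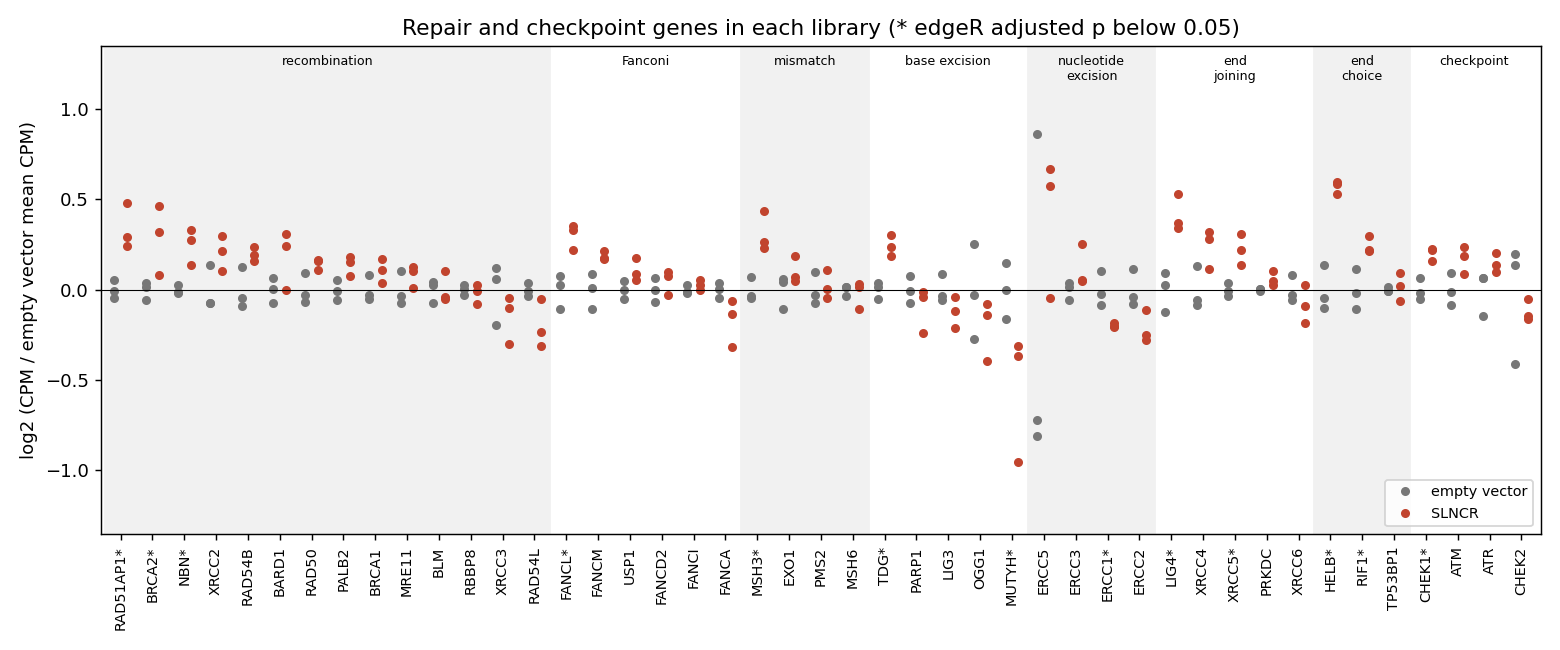
Level of each repair and checkpoint gene in each library, as the log2 ratio of its CPM to the mean CPM of the 3 empty vector libraries (y axis), with genes grouped by pathway along the x axis. Grey points are empty vector libraries and red points SLNCR libraries, 3 of each per gene, and asterisks mark the 13 genes with an edgeR adjusted p under 0.05. Most red points of the recombination, end joining and checkpoint genes lie above 0 by less than 0.5, those of MUTYH and ERCC1 lie below, and the widest scatter is that of ERCC5, which had 6 to 19 counts per library.

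Promoter sequences were compared because the series concerns E2F1. RefSeq (GRCh38.p14) gave the 250 bases before the start of 40 of the 45 genes. The 8-base E2F-type words TTTCCCGC, TTTGGCGC, TTTCGCGC and TTTGCCGC were searched on both strands, counting overlapping matches. MSH3, PMS2 and FANCA held at least 1 of them, which is 3 of 40 (7.5%), against 463 of the 10136 promoters of tested genes (4.57%) and 2.79% of all 27305 promoters of that length. The promoters of PMS2 and FANCA are printed here with the words in capitals, followed by those of LIG4 and HELB, the genes with the highest fold changes among those called, which held none. MSH3 was called higher, and PMS2 and FANCA were not called. Counted from the RefSeq start, PMS2 holds TTTGCCGC at position -43, and FANCA holds GCGGCAAA, the reverse complement of that word, at -172. Among tested genes, 5.03% of those called higher, 5.28% of those called lower and 4.45% of those not called held a word. A match is a run of letters and no evidence of binding.
FANCA, chr16:89816648-89816897, minus strand: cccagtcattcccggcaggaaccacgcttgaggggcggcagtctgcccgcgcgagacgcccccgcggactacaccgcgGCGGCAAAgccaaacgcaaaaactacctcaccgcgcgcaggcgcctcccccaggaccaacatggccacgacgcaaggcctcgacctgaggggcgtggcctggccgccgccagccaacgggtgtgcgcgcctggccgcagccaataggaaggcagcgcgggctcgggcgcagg
PMS2, chr7:6009107-6009356, minus strand: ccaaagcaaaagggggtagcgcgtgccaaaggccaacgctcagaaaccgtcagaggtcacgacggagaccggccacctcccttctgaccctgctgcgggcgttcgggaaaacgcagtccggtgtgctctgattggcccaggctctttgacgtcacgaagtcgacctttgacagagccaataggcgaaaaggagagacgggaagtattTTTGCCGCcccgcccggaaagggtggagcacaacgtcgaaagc
LIG4, chr13:108218350-108218599, minus strand: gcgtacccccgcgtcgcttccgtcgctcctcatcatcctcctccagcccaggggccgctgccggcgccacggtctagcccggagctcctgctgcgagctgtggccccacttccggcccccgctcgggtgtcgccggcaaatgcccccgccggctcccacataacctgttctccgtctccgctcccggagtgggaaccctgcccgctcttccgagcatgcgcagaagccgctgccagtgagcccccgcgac
HELB, chr12:66302243-66302492, plus strand: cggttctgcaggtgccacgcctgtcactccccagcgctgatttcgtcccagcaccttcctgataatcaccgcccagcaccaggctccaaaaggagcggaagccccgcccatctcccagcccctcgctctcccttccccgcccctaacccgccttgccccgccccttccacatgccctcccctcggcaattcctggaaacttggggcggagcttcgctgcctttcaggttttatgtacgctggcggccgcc

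Of the 14 homologous recombination genes, 3 were higher with SLNCR, 0 were lower and 11 were not called, and their median log2 fold change was 0.14 (0.00078 after GC correction). RAD51AP1, BRCA2 and NBN were the genes called, by 1.19-fold to 1.27-fold. All of them serve strand pairing or the sensing of broken ends, and RAD51AP1 stimulates the pairing of strands. RAD51AP1 (ENSG00000111247, chromosome 12, 4538798 to 4560048) was at 31.8, 32.7 and 34.1 CPM with the empty vector and 40.3, 38.9 and 45.8 CPM with SLNCR. Its lowest SLNCR library was above its highest empty vector library, and the log2 fold change was 0.34 with SE 0.084 (edgeR adjusted p = 0.0174), which was 0.10 after GC correction. The annotation also names a pseudogene of RAD51AP1, so some of its reads may have been counted elsewhere or come from the copy.

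BRCA2, which prepares exposed single strands for pairing (ENSG00000139618, chromosome 13, 32315474 to 32400266), measured 65.8, 69.4 and 70.4 CPM with the empty vector and 85.5, 72.5 and 94.7 CPM with SLNCR. SLNCR replicate 2 was only just above the highest empty vector library. The log2 fold change of BRCA2 was 0.30 with SE 0.0834 (edgeR adjusted p = 0.0274) and 0.061 with GC correction. NBN, the NBS1 subunit that joins MRE11 and RAD50 in the complex that first binds a break (ENSG00000104320, on chromosome 8), had 172, 173 and 178 CPM against 211, 191 and 219 CPM. The groups did not overlap, and its log2 fold change of 0.25 with SE 0.0582 (edgeR adjusted p = 0.0159) was 0.035 after GC correction. The other subunits of that complex were not called: RAD50, with a log2 fold change of 0.15 (edgeR adjusted p = 0.0982), and MRE11, with 0.082 (edgeR adjusted p = 0.473).

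BRCA1 and its partners were not called. BRCA1, the ubiquitin ligase that directs breaks to recombination, had 113, 115 and 124 CPM with the empty vector and 126, 119.9 and 132 CPM with SLNCR, and the groups overlapped (log2 fold change 0.11, SE 0.0613, edgeR adjusted p = 0.227). BARD1, the partner of BRCA1 in that ligase, had a log2 fold change of 0.19 and PALB2, which bridges BRCA1 and BRCA2, one of 0.14. RBBP8, which encodes the end-cutting factor CtIP, was at -0.019, and after GC correction at -0.18 with an unadjusted p of 0.00211 and an adjusted p of 0.112. The remaining members, the strand exchange factors XRCC2 and XRCC3, the translocases RAD54L and RAD54B and the helicase BLM, lay between -0.19 (RAD54L) and 0.21 (XRCC2). RAD54L had the lowest fold change of the pathway, with 44.8, 43.4 and 42.5 CPM against 37.0, 42.1 and 35.1 CPM. Its SLNCR libraries were all below the empty vector libraries, but the difference was not called (SE 0.0823, edgeR adjusted p = 0.106). Annotated exons of XRCC3 share 76.68% of their bases with KLC1 on the opposite strand, and the strand setting of the counts is not given in the sources used here, so the level of XRCC3 is uncertain. RAD50 and RAD54B share 79.66% and 59.08% of their exon bases with readthrough or nested gene models of the same strand, which were not used here, so their levels are uncertain too.

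Among the 6 Fanconi anaemia genes, 1 was higher, 0 were lower and 5 were not called, and the median log2 fold change was 0.078 (-0.032 after GC correction). FANCL, the ubiquitin ligase subunit that marks FANCD2 and FANCI (ENSG00000115392, chromosome 2, 58159243 to 58241372), was at 45.3, 51.4 and 49.7 CPM with the empty vector and 62.5, 56.8 and 61.3 CPM with SLNCR. All 3 SLNCR libraries were above the empty vector libraries (log2 fold change 0.30, SE 0.0745, edgeR adjusted p = 0.0174), and the corrected value was 0.13. FANCL and VRK2 lie on opposite strands and share 452 exon bases, 18.74% of those of FANCL. VRK2 was itself higher, and the log2 fold change was 0.35 with SE 0.0835 (edgeR adjusted p = 0.0161), and without a known strand setting the reads of the shared bases cannot be told apart.

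The substrates of FANCL were not called. FANCD2 had 91.4, 95.7 and 87.4 CPM with the empty vector and 89.5, 96.6 and 97.8 CPM with SLNCR, and FANCI had 162, 166 and 161 CPM and 169, 166 and 163 CPM. Both overlapped between groups, with log2 fold changes of 0.048 and 0.027 (edgeR adjusted p = 0.616 and 0.736). USP1, which removes the ubiquitin mark, was at 0.11, and the DNA translocase FANCM at 0.19. FANCA, a scaffold of the core complex, was the lowest of the pathway, with 71.4, 72.9 and 69.1 CPM against 64.7, 68.1 and 57.2 CPM. The SLNCR libraries of FANCA were all below the empty vector libraries, but it was not called (log2 fold change -0.16, SE 0.0729, edgeR adjusted p = 0.118), and its exons share 23.64% of their bases with ZNF276 on the opposite strand.

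In mismatch repair, 1 of 4 genes was higher and 3 were not called, with a median log2 fold change of 0.064 (-0.0087 after GC correction). MSH3 and MSH6 are subunits of the complexes that recognise copying errors, MSH3 for larger loops and MSH6 for single mismatches. MSH3 (ENSG00000113318, chromosome 5, 80654648 to 80876460) was at 70.4, 69.9 and 75.8 CPM with the empty vector and 86.5, 84.5 and 97.7 CPM with SLNCR. The groups did not overlap, and the log2 fold change was 0.31 with SE 0.0705 (edgeR adjusted p = 0.0147). MSH6 had 203, 210.3 and 211 CPM against 211, 213 and 194 CPM, overlapping ranges and a log2 fold change of -0.017 with SE 0.0542 (edgeR adjusted p = 0.837).

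After GC correction MSH3 was at 0.19 (unadjusted p = 0.00274, edgeR adjusted p = 0.12) and MSH6 at -0.16 (unadjusted p = 0.00546, edgeR adjusted p = 0.15). MSH3 and MSH6 thus had opposite signs there, neither was called, and the difference between them was not tested. PMS2, the endonuclease subunit that nicks the strand, was at 0.025 (edgeR adjusted p = 0.833), and it has 11 named pseudogenes, which makes its count uncertain. EXO1, which digests the nicked strand, was at 0.10 (edgeR adjusted p = 0.306).

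The 5 base excision and single-strand break repair genes were split, with 1 higher, 1 lower and 3 not called. Their median log2 fold change was -0.12 with and without GC correction, in both fits the value of LIG3, which was not called. In both cases the medians per library overlapped between the groups. TDG and MUTYH, the genes called, are both glycosylases: TDG removes thymine and oxidised methylcytosine opposite guanine, and MUTYH removes adenine opposite 8-oxoguanine. TDG (ENSG00000139372, chromosome 12, 103965804 to 103988874) was at 48.0, 45.8 and 48.8 CPM with the empty vector and 54.1, 56.0 and 58.8 CPM with SLNCR. The SLNCR libraries were the higher ones throughout (log2 fold change 0.24, SE 0.0708, edgeR adjusted p = 0.0306), 0.068 after GC correction. The annotation names a pseudogene of TDG, so its count is less certain.

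MUTYH (ENSG00000132781, chromosome 1, 45329163 to 45340470) was at 14.8, 13.3 and 11.9 CPM with the empty vector and 10.4, 10.8 and 6.90 CPM with SLNCR. SLNCR replicate 3 was well below the other SLNCR libraries, which were themselves just below the lowest empty vector library. The log2 fold change of MUTYH was -0.50 with SE 0.153 (edgeR adjusted p = 0.0353), the lowest of the 45 genes, with -0.30 after GC correction and -0.34 without SLNCR replicate 3 (edgeR adjusted p = 0.0956). MUTYH shares 552 exon bases (14.12%) with TOE1 on the opposite strand, which had a log2 fold change of -0.033 with SE 0.0719 (edgeR adjusted p = 0.765). OGG1, the glycosylase for 8-oxoguanine itself, had 18.9, 15.5 and 13.1 CPM against 12.1, 15.0 and 14.4 CPM, with overlapping groups (log2 fold change -0.21, SE 0.136, edgeR adjusted p = 0.292). PARP1, the sensor of nicks, and LIG3, which seals them, were at -0.095 and -0.12 (edgeR adjusted p = 0.274 and 0.239).

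Of the 4 nucleotide excision repair genes, 1 was lower and 3 were not called, and the median log2 fold change was -0.038 (0.037 after GC correction). ERCC1, the partner of the XPF nuclease that cuts beside the lesion (ENSG00000012061, chromosome 19, 45407333 to 45478828), was at 132, 121 and 116 CPM with the empty vector and 106, 108 and 107 CPM with SLNCR. The SLNCR libraries lay close together and below all empty vector libraries (log2 fold change -0.20, SE 0.0618, edgeR adjusted p = 0.0391), and after GC correction the value was -0.052. ERCC1 shares 1593 exon bases (28.57%) with CD3EAP on the opposite strand, whose log2 fold change was -0.15 with SE 0.07 (edgeR adjusted p = 0.134).

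ERCC2 and ERCC3 are the helicases XPD and XPB of the TFIIH complex, which open the strands. ERCC2 had 44.1, 49.0 and 42.9 CPM against 37.5, 41.9 and 38.2 CPM, without overlap and without a call (log2 fold change -0.21, SE 0.0809, edgeR adjusted p = 0.0786), while ERCC3 was at 0.12 (edgeR adjusted p = 0.232). ERCC5, the XPG nuclease, had 7, 19 and 6 counts with the empty vector and 18, 19 and 10 with SLNCR. Its groups overlapped, and its log2 fold change of 0.46 has an SE nearly as large (0.413, edgeR adjusted p = 0.445). Exons of ERCC5 share 63.25% of their bases with the readthrough gene BIVM-ERCC5, which was not used here, so its low counts do not give the level of the nuclease's RNA. With genes under a mean count of 50 removed, which drops ERCC5, the median of the pathway was -0.20.

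Among the 5 genes of end joining, 2 were higher and 3 were not called, with a median log2 fold change of 0.22 (0.018 after GC correction). LIG4 and XRCC5 were the genes called. LIG4, the ligase that seals the break (ENSG00000174405, chromosome 13, 108207439 to 108218368), was at 38.4, 34.6 and 40.2 CPM with the empty vector and 47.8, 48.7 and 54.4 CPM with SLNCR. All SLNCR libraries were above all empty vector libraries, 1.33-fold on average (log2 fold change 0.41, SE 0.0821, edgeR adjusted p = 0.0137), and the corrected log2 fold change was 0.18 (edgeR adjusted p = 0.234). XRCC4, which holds LIG4 at the break, had 23.2, 23.7 and 26.9 CPM against 26.7, 29.9 and 30.7 CPM, with SLNCR replicate 1 just under the highest empty vector library (log2 fold change 0.24, SE 0.0945, edgeR adjusted p = 0.0832).

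XRCC5 and XRCC6 encode Ku80 and Ku70, the subunits of the ring that slides onto a broken end. XRCC5 (ENSG00000079246, chromosome 2, 216107464 to 216206303) was at 473, 483 and 497 CPM with the empty vector and 565, 533 and 601 CPM with SLNCR, without overlap (log2 fold change 0.22, SE 0.0509, edgeR adjusted p = 0.0147). XRCC6 was at 382, 348 and 354 CPM and 339, 368 and 318 CPM, with overlapping groups (log2 fold change -0.079, SE 0.0581, edgeR adjusted p = 0.345). With GC correction XRCC5 was at 0.15 (SE 0.0373, edgeR adjusted p = 0.0881) and XRCC6 at -0.028 (edgeR adjusted p = 0.814). The transcript of XRCC5 has 44.2% GC and that of XRCC6 50.7%, the difference between the subunits was not tested, and XRCC6 has 5 named pseudogenes. PRKDC, the catalytic kinase subunit that Ku recruits, had the largest counts of the 45 genes, with 1675, 1689 and 1692 CPM against 1744, 1716 and 1815 CPM, no overlap and a log2 fold change of 0.061 with SE 0.0418 (edgeR adjusted p = 0.308).

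TP53BP1, RIF1 and HELB act where the cell chooses between the routes: TP53BP1 and its partner RIF1 shield the end, and the helicase HELB limits how far it is cut back. In this group 2 of 3 genes were higher and 1 was not called, and the median log2 fold change was 0.25 (0.034 after GC correction). HELB (ENSG00000127311, chromosome 12, 66302545 to 66347645) was at 12.4, 10.9 and 10.5 CPM with the empty vector and 17.0, 16.9 and 16.2 CPM with SLNCR, and each group was tight. Its 1.48-fold difference was the largest of the genes called (log2 fold change 0.57, SE 0.113, edgeR adjusted p = 0.0137), and 0.42 remained on the log2 scale after GC correction (SE 0.116, unadjusted p = 0.0015, edgeR adjusted p = 0.103).

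RIF1 (ENSG00000080345, chromosome 2, 151409883 to 151508013) was at 186, 198 and 217 CPM with the empty vector and 233, 232 and 246 CPM with SLNCR. The SLNCR libraries were all higher (log2 fold change 0.25, SE 0.0595, edgeR adjusted p = 0.0168), and the GC-corrected value was 0.034 (edgeR adjusted p = 0.748), the largest adjusted p among the 13 called genes. TP53BP1 was not called, at 174, 171 and 171 CPM and 174, 165 and 183 CPM (log2 fold change 0.019, SE 0.0558, edgeR adjusted p = 0.82). The shares of exon bases that HELB and RIF1 have in common with genes of the opposite strand (GRIP1 and NEB) were 1.56% and 0.91%, and those genes had 8 to 21 counts per library.

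Of the 4 checkpoint kinases, 1 was higher and 3 were not called, with a median log2 fold change of 0.16 (-0.012 after GC correction). CHEK1, which carries the ATR signal (ENSG00000149554, chromosome 11, 125625136 to 125676255), was at 63.9, 62.5 and 67.7 CPM with the empty vector and 75.8, 72.2 and 75.4 CPM with SLNCR. The groups did not overlap (log2 fold change 0.20, SE 0.0655, edgeR adjusted p = 0.0442), and the value after GC correction was 0.069. CHEK1 shares 80 exon bases (1.22%) with STT3A on the same strand, whose log2 fold change was 0.036 with SE 0.0484 (edgeR adjusted p = 0.617).

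ATM and ATR, the kinases at the head of the pathway, were not called. ATM was at 81.7, 85.7 and 92.2 CPM and 98.6, 92.1 and 102 CPM, with SLNCR replicate 2 just under the highest empty vector library (log2 fold change 0.17, SE 0.0667, edgeR adjusted p = 0.0771), and ATR at 0.15 (SE 0.0673, edgeR adjusted p = 0.13). CHEK2, which carries the ATM signal, had the lowest fold change of these kinases, with 10.3, 6.72 and 9.85 CPM against 8.08, 8.65 and 8.01 CPM. The spread of CHEK2 in the empty vector libraries enclosed all SLNCR libraries (log2 fold change -0.12, SE 0.16, edgeR adjusted p = 0.613), and 4 pseudogenes of it are named.

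Set side by side, the median log2 fold changes of the pathways ran from -0.12 in base excision repair and -0.038 in nucleotide excision repair, through 0.064 in mismatch repair and 0.078 in the Fanconi pathway, to 0.14 in homologous recombination, 0.16 in the checkpoint kinases, 0.22 in end joining and 0.25 in the end choice genes. The nucleotide excision median includes ERCC5, which had 6 to 19 counts per library. With genes under a mean count of 50 removed, which drops ERCC5, that median was -0.20 and the base excision median -0.12. Which pathway was lowest thus depended on ERCC5. The GC-corrected nucleotide excision median of 0.037 also includes ERCC5, at 0.37. No difference between pathways was tested. The pathways also differed in base composition, with median transcript GC contents of 49.6% and 51.0% in the excision pathways against 39.9% in homologous recombination, 40.7% in the checkpoint kinases and 40.9% in the end choice genes. End joining, with the second highest median fold change, had 44.2% GC, above the 42.2% of both the Fanconi and the mismatch repair genes. Both of these end joining medians are the values of a single gene, XRCC5. After GC correction, 7 of the 8 pathway medians lay between -0.032 and 0.037, and that of base excision repair stayed at -0.12. Both base excision medians are the values of a single gene, LIG3, which was not called. The LIG3 transcript has 47.7% GC, close to the median of 47.9% of tested genes. LIG3 also shares 29.06% of its exon bases with RFFL on the opposite strand. The corrected base excision medians per library were 0.088, -0.012 and -0.065 with the empty vector and -0.035, -0.023 and -0.20 with SLNCR. SLNCR replicates 1 and 2 thus lay within the empty vector range. Median deviations of the 14 recombination genes from the empty vector mean on the log2 scale were -0.053, -0.006 and 0.041 for the empty vector replicates, in order of their number, and 0.12, 0.11 and 0.17 for those with SLNCR. With GC correction the same medians were -0.011, -0.0019 and -0.0077 against -0.0055, 0.015 and -0.013, and the groups overlapped. The correction removes any difference between libraries that runs along GC content, whatever its source. This overlap therefore follows at least in part from how the correction is built, and the source was not tested.

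Across the 45 genes the log2 fold change and the GC content of the longest transcript had a Pearson r of -0.80 and a Spearman rho of -0.78. The corresponding r was -0.70 over 116 other genes of the same pathways and -0.64 over 12790 tested genes. These are descriptions across genes that share the same 6 libraries, and genes are not independent replicates. Against the log2 exon length, r was 0.055 over the 45 genes. Of the 14 members with under 40% GC, 7 (50%) were called higher, where 33.5% of all tested genes of that composition were, and of the 16 with 40 to 45% GC, 4 (25%) were called higher against 12.6%. In the band from 45 to 50% GC 0 of 7 members were called, where 1.78% of all tested genes were higher and 2.45% lower, and of the 8 with at least 50% GC, 2 (25%) were called lower against 16.3% of all tested genes. Members with under 40% GC had a median log2 fold change of 0.24, close to the 0.21 of all genes of that composition, and those with at least 50% GC had -0.20 against -0.16.

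This relation to GC content was present in each SLNCR library, with the largest medians in replicate 3. Median deviations of the 2134 tested genes with under 40% GC were 0.20, 0.14 and 0.29 for SLNCR replicates 1, 2 and 3 against -0.048, -0.0076 and 0.054 for the empty vector, and those of the 45 members were 0.078, 0.088 and 0.15 against -0.029, -0.0073 and 0.029. For genes with at least 60% GC, the medians in the SLNCR libraries were -0.22, -0.16 and -0.36. Of the 13 called genes, HELB, MSH3, LIG4 and XRCC5 had the highest corrected log2 fold changes, at 0.42, 0.19, 0.18 and 0.15, with unadjusted p of 0.0015, 0.00274, 0.0198 and 0.000633 (edgeR adjusted p = 0.103, 0.12, 0.234 and 0.0881). ERCC5, not called in either fit, was at 0.37 after the correction (edgeR adjusted p = 0.702).

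**Figure D2:**
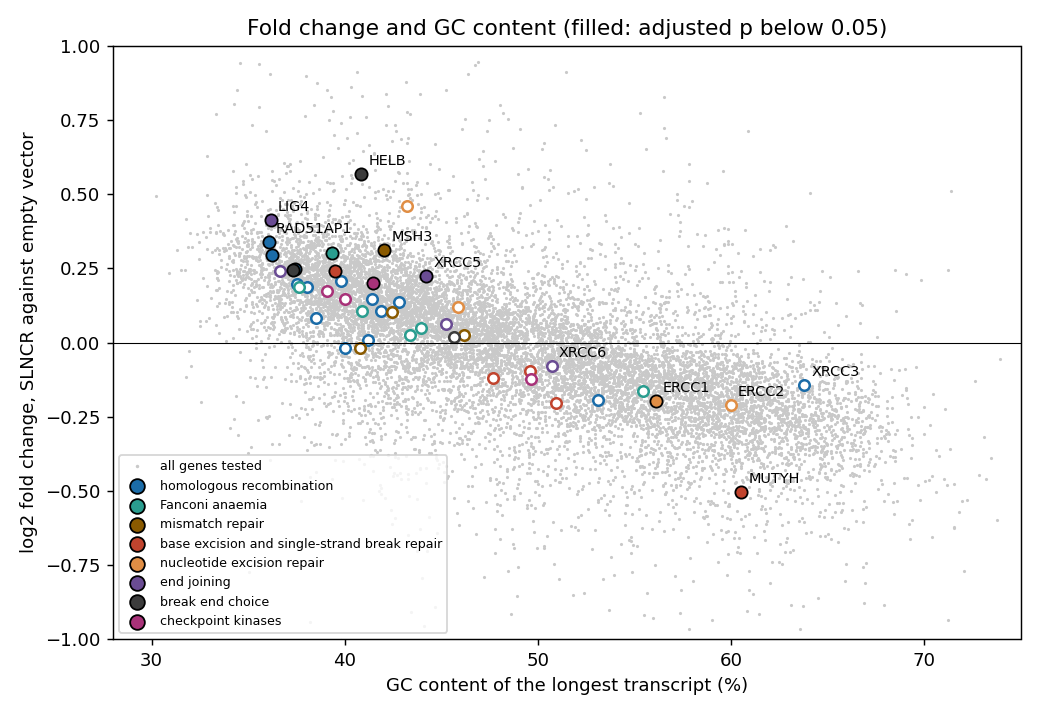
Fold change and base composition: the x axis is the GC content of the longest transcript in percent and the y axis the log2 fold change of SLNCR against the empty vector. Grey dots are all tested genes within the axes, circles are the 45 repair and checkpoint genes coloured by pathway, and filled circles are the 13 with an edgeR adjusted p under 0.05. The circles run from LIG4 and RAD51AP1 at the upper left to MUTYH at the lower right (Pearson r -0.80), along the band of the grey dots.

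**Figure D3:**
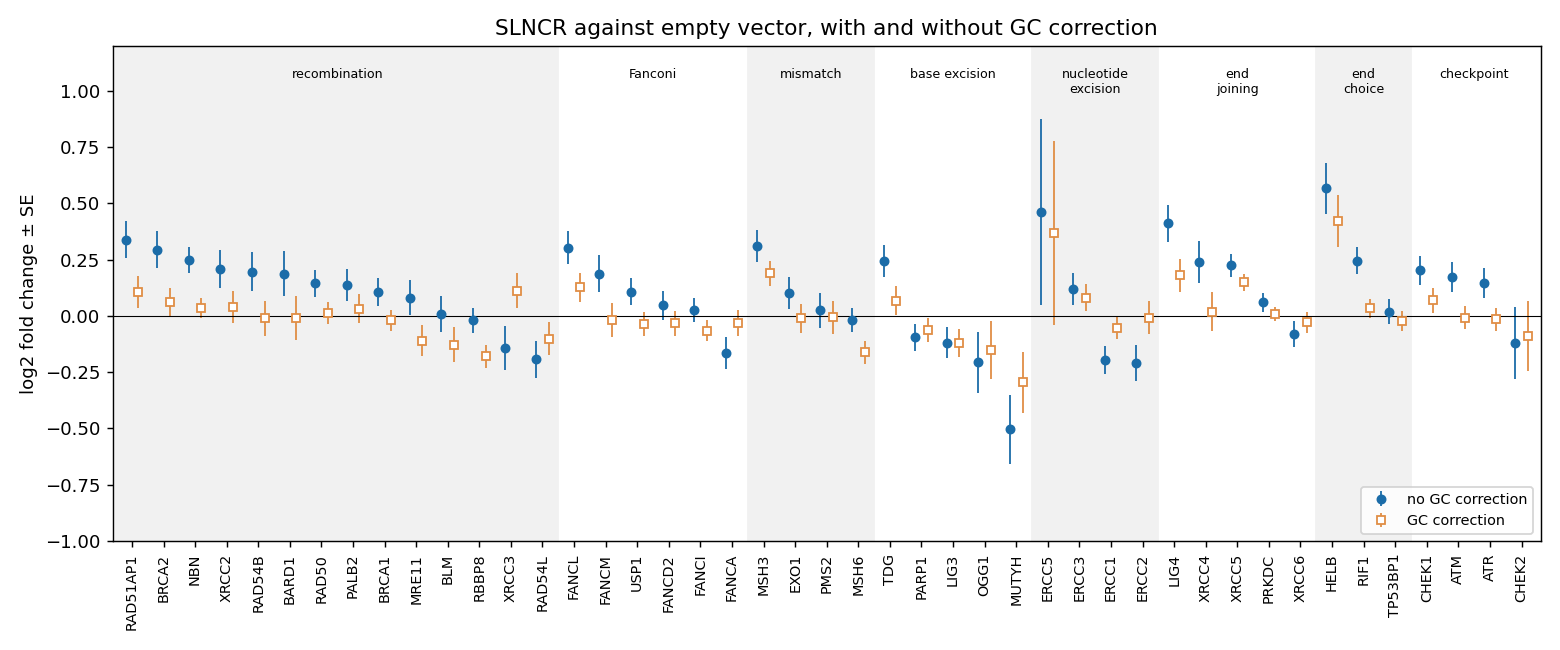
Log2 fold change ± SE of each of the 45 genes before (blue circles) and after (open orange squares) GC correction, 3 libraries per group, with the genes grouped by pathway. The squares lie closer to 0 than the circles for most genes, and HELB stays highest among the genes called, at 0.57 before and 0.42 after the correction.

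The rest of these pathways was examined with 123 further genes, of which 118 were matched and 116 tested. Of the 116, 4 were higher and 10 were lower, 12.1% in all against 16.5% of all tested genes, and their median log2 fold change was -0.015. The 4 higher genes, ABRAXAS1, SFR1, CCNH and ETAA1, had transcripts of 33.7% to 39.3% GC. ABRAXAS1, the scaffold of a BRCA1 complex, had 26.8, 27.5 and 25.6 CPM with the empty vector and 34.1, 33.4 and 36.4 CPM with SLNCR (log2 fold change 0.38, SE 0.0833, edgeR adjusted p = 0.014). SFR1, a factor of strand exchange, was at 0.36 (edgeR adjusted p = 0.0415), CCNH, the cyclin of the TFIIH kinase, at 0.29 (edgeR adjusted p = 0.0313), and ETAA1, an activator of ATR, at 0.31 (edgeR adjusted p = 0.0464).

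Base excision repair held 5 of the 10 lower genes, of 19 tested, among them NEIL1, LIG1, APEX2 and XRCC1. That is 26.3%, against 7.67% of all tested genes, the share to set beside the lists below too. The median GC content of these 19 genes was 53.5%, and of all tested genes with at least 50% GC 16.3% were lower. NEIL1, a glycosylase for oxidised bases, had 5.39, 7.27 and 5.14 CPM with the empty vector and 3.71, 3.36 and 3.78 CPM with SLNCR, without overlap (log2 fold change -0.71, SE 0.196, edgeR adjusted p = 0.0252). LIG1, the ligase of replicated strands, was at -0.38 (edgeR adjusted p = 0.0209). Among end joining genes, 2 of 7 were lower, POLM, a gap-filling polymerase, at -0.42 and PAXX, a partner of Ku, at -0.44 (edgeR adjusted p = 0.0148 and 0.0161). The end choice genes had 2 of 8 lower, MAD2L2, a shieldin subunit, at -0.35 and NUDT16L1, a regulator of TP53BP1, at -0.30 (edgeR adjusted p = 0.0249 and 0.0455). FAAP100 of the Fanconi core complex was the lower gene among 13 of that pathway, at -0.42 (edgeR adjusted p = 0.0137). None of the 3 mismatch repair genes tested was called.

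End joining thus had members higher (LIG4, XRCC5) and other genes lower (POLM, PAXX), and the same held for end choice. The 10 lower genes had transcripts of 53.5% to 65.8% GC. After GC correction 0 of the 116 had an edgeR adjusted p under 0.05, where 0.0156% of all genes did, and 16 had an unadjusted p under 0.05, near the 15.1% of all genes.

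The outermost annotated end of each gene was taken as its start. Several members then begin within 1000 bases of the start of a gene on the opposite strand, starts that overlap included. Genes can have further starts, and the starts used in these cells were not examined. The main promoters of a pair therefore need not lie together. From GENCODE release 29, 15 such pairs with tested genes were used, 14 of them with a protein-coding neighbour. Both genes were called in 1 pair, only the member in 1, only the neighbour in 4, and neither in 9. Of all genes tested, 16.5% were called. After GC correction the smallest edgeR adjusted p of a neighbour was 0.157, for NBR1. LIG4 and ABHD13, whose starts are 11 bases apart, were both higher, with log2 fold changes of 0.41 and 0.34 (SE 0.11, edgeR adjusted p = 0.0432 for ABHD13). Their transcripts have 36.2% and 34.1% GC, and after GC correction they were at 0.18 and 0.079 (edgeR adjusted p = 0.234 and 0.71). MUTYH and TOE1 had -0.50 and -0.033, so the lower value was found in MUTYH and TOE1 was not called. PRKDC and MCM4, with starts 2 bases apart, had 0.061 and 0.052 (edgeR adjusted p = 0.427 for MCM4). The neighbours called next to members that were not called were NPAT (0.26, beside ATM), NBR1 (0.21, beside BRCA1), TMEM167A (0.26, beside XRCC4) and ZFYVE21 (-0.44, beside XRCC3). The difference within a pair was not tested.

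**Figure D4:**
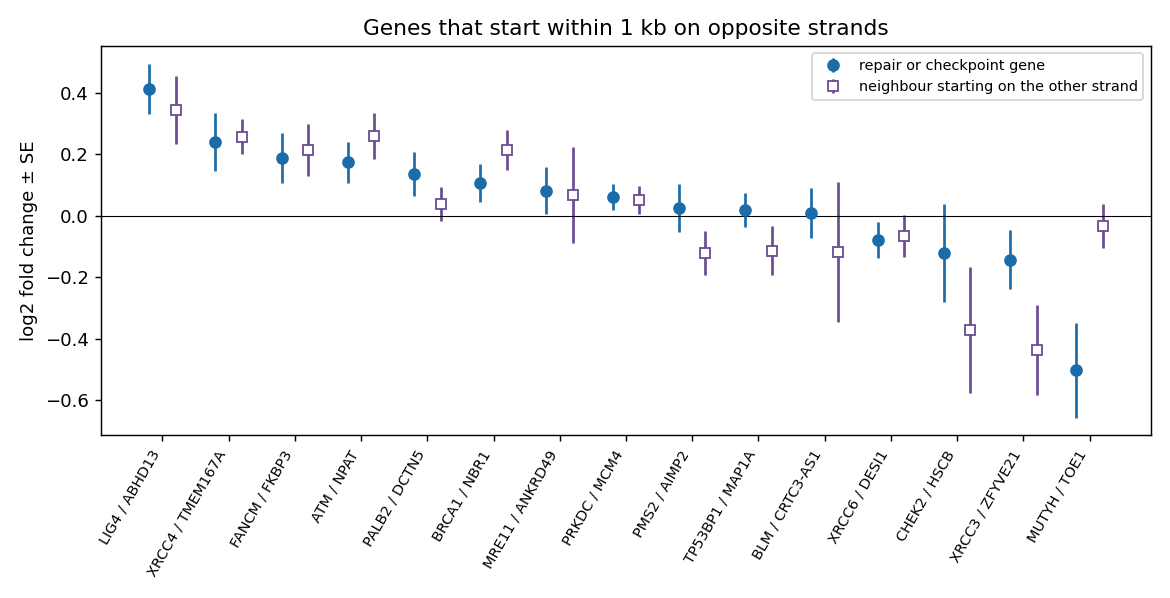
Log2 fold change ± SE of SLNCR against the empty vector (y axis, 3 libraries per group) for 15 pairs of genes on opposite strands. The outermost annotated starts of each pair lie within 1000 bases of each other. Filled circles are the repair or checkpoint gene and open squares its neighbour. LIG4 and ABHD13 are both above 0.3, and MUTYH lies at -0.50 while TOE1 lies near 0.

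Exon overlap and copies limit the reading of single genes. Of the 45 genes, 22 share annotated exon bases with another gene of the table, 20 of them with a gene of the opposite strand, and of the 13 called genes 7 do so. The 6 called genes without such overlap were BRCA2, LIG4, NBN, RAD51AP1, TDG and XRCC5, and 4 of these (BRCA2, LIG4, NBN and XRCC5) also have no named pseudogene.

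The 45 genes spanned a wide range of levels. In the empty vector cells the median was 9.87 RPKM (CPM per kilobase of annotated exon). XRCC6 at 109.9 ± 5.60 RPKM, PRKDC at 109 ± 0.58 RPKM and XRCC5 at 88.7 ± 2.23 RPKM (mean ± SD, n = 3) were the highest, so the end-binding complex of end joining led the list. XRCC6 and PRKDC did not differ beyond their spread. PARP1 followed at 55.0 ± 2.91 RPKM, and then RBBP8 and NBN, at 28.4 ± 0.546 and 28.3 ± 0.507 RPKM, which were within each other's spread. LIG4 and XRCC4 were at 8.60 ± 0.65 and 9.20 ± 0.751 RPKM, far below the Ku genes of the same pathway. The lowest were CHEK2 at 1.99 ± 0.432, OGG1 at 1.81 ± 0.329, HELB at 0.816 ± 0.0711 and ERCC5 at 0.139 ± 0.0992 RPKM, and CHEK2 and OGG1 overlapped. ERCC5 shares 63.25% of its exon bases with BIVM-ERCC5, so its value does not give the level of the nuclease's RNA.

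With SLNCR the same 3 genes were highest, PRKDC at 114 ± 3.29 RPKM, XRCC6 at 104 ± 7.68 RPKM and XRCC5 at 104 ± 6.20 RPKM. HELB, despite the largest fold change among the genes called, stayed the second lowest of the 45 genes at 1.21 ± 0.0303 RPKM. Levels per length depend on the gene model: with the length of the longest transcript in place of all annotated exons, the median of the 45 genes with the empty vector was 14.0 RPKM, and XRCC6, XRCC5 and PRKDC were at 133, 129 and 125 RPKM, so the distance between the Ku genes depends on the length used.

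**Figure D5:**
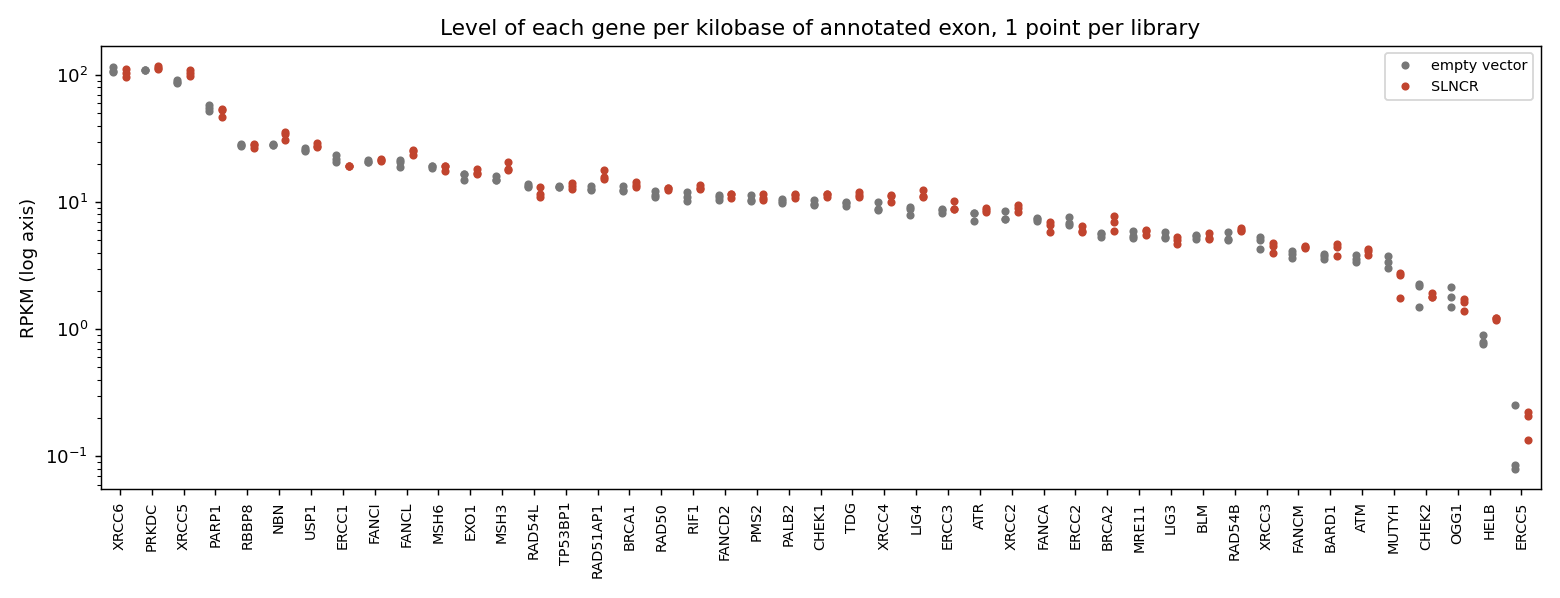
Level of each of the 45 genes in RPKM (log axis), 1 point per library, grey for the empty vector and red for SLNCR, ordered by the empty vector mean. XRCC6, PRKDC and XRCC5 lie near 100 RPKM, most genes between 3 and 30 RPKM, and HELB and ERCC5 at the bottom. Groups differ far less than genes do.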

How the data were processed

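Per the labels' protocols, ribosomal RNA was depleted and libraries were read from both ends at 150 bases on an Illumina instrument. The authors deposited raw read counts per gene. The submitters' processing notes name cutadapt, STAR, DESeq2 and GRCh38 without their roles. The counter, the annotation and whether strand was used: not given in the sources used here. The 1857 rows naming no gene (2.147% to 2.588% of counts) and 63 rows that repeated a neighbour's counts were left out, which left 18318 genes. Groups came from the sample titles, and the columns were matched to them by name and replicate number.

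Genes were tested with edgeR 4.0.16 (R 4.3.3), whose quasi-likelihood F-test was run two-sided after TMM scaling and filterByExpr. P-values were adjusted by Benjamini and Hochberg over the 12797 genes left, and 0.05 was the threshold. The biological coefficient of variation was 5.65%. Standard errors came from the fold change and its F statistic. CPM and RPKM were computed here with TMM factors, and coordinates, exon lengths and GC content came from GENCODE release 29 (GRCh38). The GC correction used per-library loess offsets (span 0.5, degree 2) on log2 CPM with a prior count of 2. By design it also removes a difference between the groups that runs along GC content, technical or biological. Replicates differed by more than sampling noise (chi-square per degree of freedom 1.79 to 6.97). No label tells which cultures were separate, so p-values measure the spread between these libraries. The model was also run on simulated counts whose changes were larger than most of those described here, which does not test differences as small as these. The 45 genes and the lists were chosen with earlier results of these data known. Genes called and the extremes of each pathway were described in full, as were up to 3 called genes per list of other pathway genes. XPA, SHLD1, SHLD2, SHLD3 and TEN1 were not analysed here, and 2 further listed genes did not pass the filter. GRIP1, NEB, VRK2 and the other overlapping or neighbouring genes were named after their values were seen. Some genes and 1 pair of neighbouring genes are not reported here. Alternatives were other size factors, other filters, DESeq2 1.42.0, limma-voom (limma 3.58.1), the replicate number as a block, GC correction, each library left out, all rows with an identifier, other thresholds and another gene length.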

Additional observations from a re-analysis of the deposited data

How the results depend on the processing

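Under the alternatives run, the 13 called genes kept the sign of their fold change. With size factors in the manner of DESeq2, a mean count of at least 50, limma-voom and all rows with an identifier kept, the same 13 were called. Leaving out the filter on low counts added ATM, upper quartile factors lost CHEK1, and DESeq2 lost CHEK1 and ERCC1 and gave MUTYH no adjusted p, so 10 were called higher or lower and 0 of those were lower. At a threshold of 0.01, 0 of the 45 were higher and 0 lower (all genes 2 and 0, other pathway genes 0 and 0), and at 0.1 all genes gave 1838 higher and 1804 lower and other pathway genes 14 higher. With GC correction 0 of the 45 were higher and 0 lower (all genes 1 and 1, other pathway genes 0 and 0), and SLNCR itself had a log2 fold change of 3.38 with an edgeR adjusted p of 0.0538.

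The labels name no batch, and the deviations of same-numbered libraries correlated at 0.075, 0.007 and 0.239. SLNCR replicates 1 and 3 correlated best with their own number, and SLNCR replicate 2 with empty vector replicate 1 (0.205). With 3 libraries per group this cannot settle whether replicates of the same number were paired. A replicate block called 18 of the 45 genes, the 13 and ATM, ERCC2, RAD50, XRCC2 and XRCC4, with all genes at 1772 higher and 1751 lower and other pathway genes at 14 higher. GC correction with the replicate block gave 2 higher (HELB, XRCC5) and 2 lower (MSH6, RBBP8), 161 and 246 over all genes, and 1 and 2 among other pathway genes. Among the other pathway genes, DESeq2 called 2 higher and no filter 11.

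Leaving out each library gave 0 to 13 higher and 0 to 5 lower of the 45, 1 to 1722 higher and 0 to 1644 lower of all genes, and 0 to 12 higher and 0 to 17 lower of the other pathway genes. With GC correction as well, chosen after seeing the data, these ranges were 0 to 2 and 0 to 2, 0 to 293 and 0 to 375, and 0 to 2 and 0 to 2. Without SLNCR replicate 3 they gave 45 higher and 56 lower of all genes. Leaving out SLNCR replicate 2 gave the highest counts of all genes, and the cause was not tested.

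Median log2 fold changes with GC correction, and with GC correction and the replicate block, were -0.011 and -0.011 for all members, 0.00078 and 0.0011 for homologous recombination, -0.032 and -0.033 for Fanconi anaemia, -0.0087 and -0.0085 for mismatch repair, 0.037 and 0.036 for nucleotide excision repair, 0.018 and 0.018 for end joining, 0.034 and 0.034 for break end choice and -0.012 and -0.011 for checkpoint kinases. The nucleotide excision repair median was -0.20 with a mean count of at least 50. Leaving out each library gave 0.20 to 0.31 for break end choice and -0.0200 to -0.0024 for the other pathway genes, whose median with no filter was -0.00012. The median level of the 45 genes was 14.0 RPKM with the length of the longest transcript.

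The sign turned in genes that were not called. With GC correction, and with GC correction and the replicate block, the log2 fold changes were -0.019 and -0.018 for BRCA1, -0.011 and -0.015 for BARD1, 0.11 and 0.11 for XRCC3, -0.011 and -0.011 for RAD54B, -0.13 and -0.13 for BLM, -0.11 and -0.11 for MRE11, -0.017 and -0.018 for FANCM, -0.065 and -0.066 for FANCI, -0.033 and -0.034 for FANCD2, -0.036 and -0.037 for USP1, -0.0063 and -0.0063 for PMS2, -0.011 and -0.011 for EXO1, -0.024 and -0.025 for TP53BP1, -0.0078 and -0.0074 for ATM and -0.016 and -0.015 for ATR. Upper quartile factors gave -0.00078 for BLM. Leaving out each library gave -0.044 to 0.037 for BLM, -0.041 to 0.012 for RBBP8, -0.041 to 0.026 for MSH6, -0.021 to 0.077 for PMS2 and -0.018 to 0.058 for TP53BP1.

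Low counts limit ERCC5, with 6 to 19 counts per library, and HELB, MUTYH, OGG1 and CHEK2, whose levels stood between 6.72 and 18.9 CPM. For ERCC5 the exon bases shared with BIVM-ERCC5 are a further limit.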

Other observations

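The word CCAAT, the letters of the box bound by the NF-Y factor, was counted on both strands anywhere in the same 250-base promoters. As for the E2F-type words, a match is a run of letters and no evidence of binding. At least 1 stood in 21 of the 40 promoters of repair and checkpoint genes (52.5%), in 35.4% of the promoters of tested genes and in 42.4% of those of the other pathway genes. By call, 4 of 9 members higher with SLNCR (44.4%), 1 of 2 lower members (50%) and 16 of 29 members not called (55.2%) held one. Among tested genes the shares were 33% of those higher, 36.3% of those lower and 35.6% of those not called. The median GC content of the promoters was 64.0% in the members and 64.8% in tested genes, while that of the members' transcripts was 41.9% against 47.9% for tested genes.

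The members nearest to the threshold without a call were ATM (edgeR adjusted p = 0.0771), ERCC2 (0.0786), XRCC4 (0.0832), XRCC2 (0.0927) and RAD50 (0.0982), with log2 fold changes of 0.17, -0.21, 0.24, 0.21 and 0.15. Those just within it were CHEK1 (0.0442), ERCC1 (0.0391) and MUTYH (0.0353).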
